A study of Homo sapiens with 12 samples.

Results

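The genes described here carry a cell out of G1, the growth phase, and through S phase, when DNA is copied. They are a named list of 40 genes of the G1/S transition and of DNA replication. Of the 40, 39 had a probe set with that symbol alone on the array (UHRF1 had none), 61 probe sets in all. Of these 39, 38 were bright enough to be tested, among 7178 genes tested in all. E2F2 was the exception, below the level of the filter on all 12 arrays. The probe set of highest mean signal stands for each gene.

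RNA was measured on 12 Affymetrix arrays in 5 established human melanoma lines, all with the V600E form of BRAF, a kinase of the MEK and ERK growth pathway. PLX4032 (vemurafenib), an inhibitor of RAF kinases, was given for 8 h at 250 nM to Malme3M, SkMel-1, SkMel-5, SkMel-19 and SkMel-28, and at 1000 nM to SkMel-19 and Malme3M only. The control of each line received 0.1% DMSO, the solvent, for the same time. Each line gave a single array at each dose. The lines are therefore the replicates, and each p-value sets a change against an estimate of its spread between lines. That estimate borrows from the other genes on the arrays. In the comparisons within SkMel-19 and Malme3M it is also pooled over both lines and all doses. No normal cell and no melanoma with unaltered BRAF is among them.

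Cells that leave G1 activate cyclin E with its kinase CDK2, and CDC25A removes the phosphates that hold CDK2 back. The kinase helps release E2F transcription factors from the RB protein, and E2F switches on genes for replication. Origins of replication are licensed in G1, when ORC, CDC6 and CDT1 load the MCM2 to MCM7 helicase ring. In S phase CDC7, CDC45 and the GINS complex turn that ring into an active helicase, and polymerases, the PCNA clamp and its RFC loader copy the DNA. In melanoma with active BRAF, ERK signalling is a known driver of entry into S phase.

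At 250 nM, 18 of the 38 genes tested fell at a limma adjusted p under 0.05, 0 rose and 20 did not pass. Of all genes tested, 13.1% fell and 15.2% rose by the same rule. The median log2 fold change of the 38 was -0.22, against 0.03 over all genes. CDC25A fell 3.11-fold and CDC6 2.01-fold, and with CCNE2, MCM10, UNG, CCNE1 and E2F1 they make the 7 genes that passed with a fall of at least 1.5-fold. The remaining 11 that passed fell by less, with log2 fold changes no further below 0 than the -0.55 of CHAF1A. Without SkMel-1, or without SkMel-19, 11 genes fell in place of 18. The 9 genes that fell at the threshold whichever line was left out were CDC25A, CCNE1, CCNE2, E2F1, CDC6, MCM10, GINS1, CHAF1A and UNG. In bulk RNA, fewer cells in S phase and less RNA per cell cannot be told apart.

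Counted by line, 18 of the 38 genes were lower at 250 nM than in DMSO in all 5 lines, and 0 were higher in all 5. Of all genes tested, 16.6% were lower in all 5 and 20.9% higher. Of those 18, 16 had passed the test, and the other two were PCNA and RFC4. In only 4 genes, CCNE1, CDC25A, CDC6 and MCM10, did every array at 250 nM lie below every DMSO array, which held for 1.31% of all genes. For 33 of the 38 genes the 5 lines in DMSO differed more from each other than the drug changed the gene on average. The range over lines in DMSO had a median of 0.93 on the log2 scale, and lay between 0.24 for TYMS and 2.28 for CDK2.

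**Figure D1:**
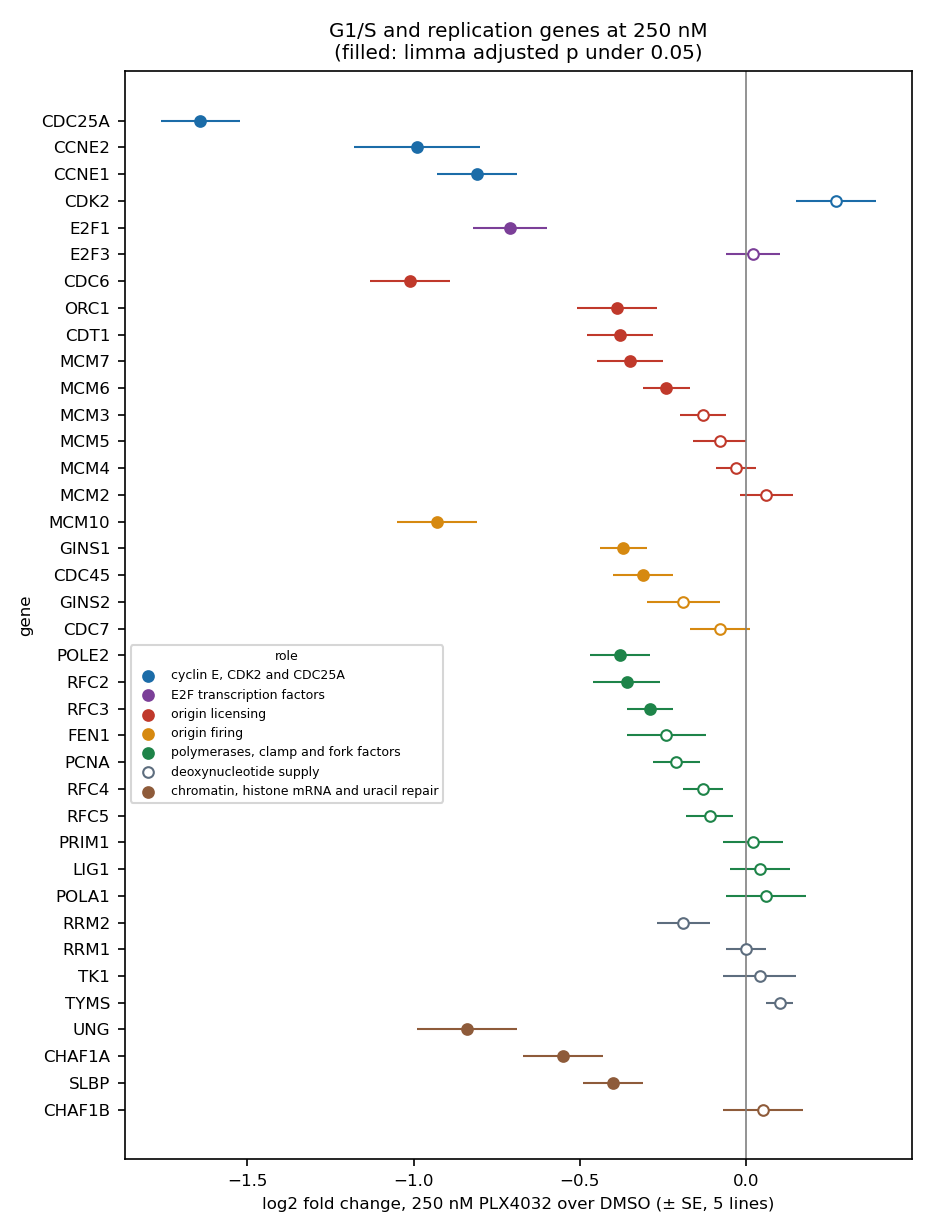
Log2 fold change of each of the 38 genes at 250 nM PLX4032 over DMSO (horizontal axis) with its standard error over 5 lines, in blocks by role; filled points passed at a limma adjusted p under 0.05. All 18 filled points lie left of 0, led by CDC25A at -1.64, and the 4 deoxynucleotide supply genes are all open.

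The promoters of 8 of the genes are printed here as examples from both sides of the test: CDC25A, E2F1, CDC6, MCM10 and UNG fell, and MCM2, PCNA and TYMS did not pass. Each is the RefSeq sequence (build GRCh38.p14) of 300 bases, 250 before to 50 after the gene's start, 5′ to 3′ on the strand of the gene. Capitals mark the core of the E2F site, searched on both strands as TTCCCGC, or else TTCGCGC, or else TTGCCGC, or else TTGGCGC, and cores that overlap run together. Positions count from 1 at the gene's start, with -1 the base before it.
CDC25A (chr3:48188368-48188667, minus strand): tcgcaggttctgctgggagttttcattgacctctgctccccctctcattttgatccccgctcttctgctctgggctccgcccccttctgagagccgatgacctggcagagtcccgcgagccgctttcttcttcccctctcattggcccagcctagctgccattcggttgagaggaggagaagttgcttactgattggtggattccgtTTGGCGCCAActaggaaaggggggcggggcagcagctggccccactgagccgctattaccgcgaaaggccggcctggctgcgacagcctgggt
E2F1 (chr20:33686336-33686635, minus strand): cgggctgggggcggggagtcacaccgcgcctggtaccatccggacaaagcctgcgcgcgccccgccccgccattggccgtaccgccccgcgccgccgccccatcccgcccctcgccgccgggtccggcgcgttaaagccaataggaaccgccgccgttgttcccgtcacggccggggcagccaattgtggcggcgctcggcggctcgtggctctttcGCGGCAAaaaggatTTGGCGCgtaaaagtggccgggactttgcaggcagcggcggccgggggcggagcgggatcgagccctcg
CDC6 (chr17:40287629-40287928, plus strand): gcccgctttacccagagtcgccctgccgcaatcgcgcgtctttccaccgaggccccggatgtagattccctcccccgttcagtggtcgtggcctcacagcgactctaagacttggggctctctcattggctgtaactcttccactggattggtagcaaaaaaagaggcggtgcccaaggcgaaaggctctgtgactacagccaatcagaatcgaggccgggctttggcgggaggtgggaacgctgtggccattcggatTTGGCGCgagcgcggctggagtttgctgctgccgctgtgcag
MCM10 (chr10:13161308-13161607, plus strand): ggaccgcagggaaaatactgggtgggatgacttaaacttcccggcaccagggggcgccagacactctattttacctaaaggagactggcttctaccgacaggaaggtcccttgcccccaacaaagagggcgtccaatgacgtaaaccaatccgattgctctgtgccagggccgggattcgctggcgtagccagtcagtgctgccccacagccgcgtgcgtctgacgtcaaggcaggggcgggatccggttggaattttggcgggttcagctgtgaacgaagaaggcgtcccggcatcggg
UNG (chr12:109097347-109097646, plus strand): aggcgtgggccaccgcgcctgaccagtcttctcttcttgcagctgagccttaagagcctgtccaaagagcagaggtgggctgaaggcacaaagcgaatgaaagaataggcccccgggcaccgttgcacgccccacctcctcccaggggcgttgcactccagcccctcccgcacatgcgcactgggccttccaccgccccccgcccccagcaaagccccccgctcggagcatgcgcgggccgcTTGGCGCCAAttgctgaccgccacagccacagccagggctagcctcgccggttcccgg
MCM2 (chr3:127598161-127598460, plus strand): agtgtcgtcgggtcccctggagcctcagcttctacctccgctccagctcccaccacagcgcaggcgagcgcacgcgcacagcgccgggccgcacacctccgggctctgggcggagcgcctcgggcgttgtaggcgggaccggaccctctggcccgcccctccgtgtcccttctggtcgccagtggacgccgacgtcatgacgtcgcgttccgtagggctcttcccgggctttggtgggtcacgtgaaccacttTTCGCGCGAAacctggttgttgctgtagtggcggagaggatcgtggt
PCNA (chr20:5126573-5126872, minus strand): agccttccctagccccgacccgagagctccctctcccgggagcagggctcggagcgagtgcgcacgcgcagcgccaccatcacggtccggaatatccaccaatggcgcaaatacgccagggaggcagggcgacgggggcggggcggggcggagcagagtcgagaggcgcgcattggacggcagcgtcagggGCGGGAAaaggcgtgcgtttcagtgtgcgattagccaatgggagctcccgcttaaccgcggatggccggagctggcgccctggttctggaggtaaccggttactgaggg
TYMS (chr18:657403-657702, plus strand): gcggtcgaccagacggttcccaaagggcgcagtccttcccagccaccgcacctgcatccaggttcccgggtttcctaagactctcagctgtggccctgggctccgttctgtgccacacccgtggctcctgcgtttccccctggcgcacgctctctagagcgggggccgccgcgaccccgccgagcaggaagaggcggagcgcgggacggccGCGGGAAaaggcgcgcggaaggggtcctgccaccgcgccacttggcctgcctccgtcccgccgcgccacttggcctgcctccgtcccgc

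The core lies at -43 to -34 in CDC25A, at -8 to 2 in UNG and at 4 to 13 in MCM2. In each of these 3 promoters a pair of cores on opposite strands overlaps. E2F1 has 2 separate cores, at -33 to -27 and at -19 to -13, CDC6 has 1 at 9 to 15, PCNA 1 at -59 to -53 and TYMS 1 at -39 to -33. In MCM10 none of these letters is in the window. Of the 40 genes 36 had a promoter in the RefSeq table, and CCNE2, CDK2, MCM4 and MCM5 did not.

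An E2F core was present in 29 of those 36 promoters (80.6%), against 13% of all 35116 promoters of that length in the table and 16.1% of the 22199 of protein-coding genes. By the outcome at 250 nM, the core was in 13 of 17 promoters of genes that fell (76.5%) and 14 of 17 of those that did not pass (82.4%). The letters TTTGGCGGG, close to the core but outside the search, were in the promoters of MCM10 and CDC45. Both genes fell and are counted as without a core. The other promoters without a core, those of CCNE1, SLBP, FEN1, TK1 and RRM2, did not hold TTTGGCGGG. Which of these shares is higher therefore depends on the letters chosen, and their difference was not tested. The letters CCAAT, searched on both strands, were in 21 of the 36 (58.3%), against 34.6% of all promoters. Of the 45 CCAAT matches 6 overlapped an E2F core. The letters TTTGAA, known as the CHR element of genes that peak in G2 and mitosis, were in 2 of the 36 (5.56%), against 15.2% of all promoters. In 30 promoters of G2 and mitosis genes, TTTGAA was in 22 (73.3%) and an E2F core in 11 (36.7%). These matches describe letters, not bound sites.

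Of cyclin E, its kinase and CDC25A, 3 of 4 genes fell, and CDC25A had the largest change of the 38. Signals are linear and are given for SkMel-1 first, then SkMel-5, then SkMel-28, then SkMel-19 and last Malme3M. CDC25A, the phosphatase that activates CDK2, had 119.2, 132.8, 137.8, 207.9 and 110.1 at 250 nM, against 483.5, 334.6, 496.0, 562.0 and 430.2 in DMSO. The highest treated array, SkMel-19, was below the lowest DMSO array, SkMel-5. The mean log2 level of CDC25A was 7.23 ± 0.33 at 250 nM and 8.87 ± 0.27 in DMSO (SD, n = 5 lines each), a log2 fold change of -1.64 (SE 0.12, limma adjusted p = 0.000153). A further probe set of CDC25A fell less, by 1.01 on the log2 scale (SE 0.16, limma adjusted p = 0.00336), so the size of the fall depends on the probe set.

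CCNE1, which encodes cyclin E1, had 242.1, 240.0, 338.0, 320.3 and 215.7 at 250 nM, against 618.5, 411.7, 567.9, 472.0 and 356.8 in DMSO. The groups did not overlap, and SkMel-1 changed most, by -1.31 on the log2 scale where the other lines lay between -0.75 and -0.54. Its log2 fold change was -0.81 (SE 0.12, 1.75-fold lower, limma adjusted p = 0.00205). CCNE2, for cyclin E2, had 213.9, 999.0, 667.1, 286.3 and 591.4 at 250 nM, against 840.5, 1338.0, 959.0, 692.7 and 1097.1 in DMSO. It fell in every line, but the groups overlapped, since SkMel-5 at 250 nM lay above 3 of the DMSO arrays. The log2 fold change of CCNE2 was -0.99 (SE 0.19, 1.99-fold lower, limma adjusted p = 0.00673), and its lines spread between -1.92 in SkMel-1 and -0.42 in SkMel-5.

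CDK2, the kinase partner of cyclin E, did not pass. Its probe set had 2968.9, 6901.3, 5657.6, 7499.3 and 8873.4 at 250 nM, against 1699.6, 7638.4, 3980.6, 7132.8 and 8320.5 in DMSO. It was higher in 4 lines and lower in SkMel-5 (log2 fold change 0.27, SE 0.12, 95% interval -0.01 to 0.54, limma adjusted p = 0.129). CDK2 lies next to PMEL, a melanosome gene with high signal in these lines. The changes of CDK2 by line were 0.80, -0.15, 0.51, 0.07 and 0.09, and those of PMEL were 0.83, 0.11, 0.26, 0.01 and -0.13. The CDK2 values above are of its brightest probe set. A further CDK2 probe set above the filter was also higher and did not pass (0.36, SE 0.13, limma adjusted p = 0.0716). Another, below the filter, had a mean log2 change of -0.32, with no test. Whether RNA from PMEL reaches the CDK2 probe sets was not tested.

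**Figure D2:**
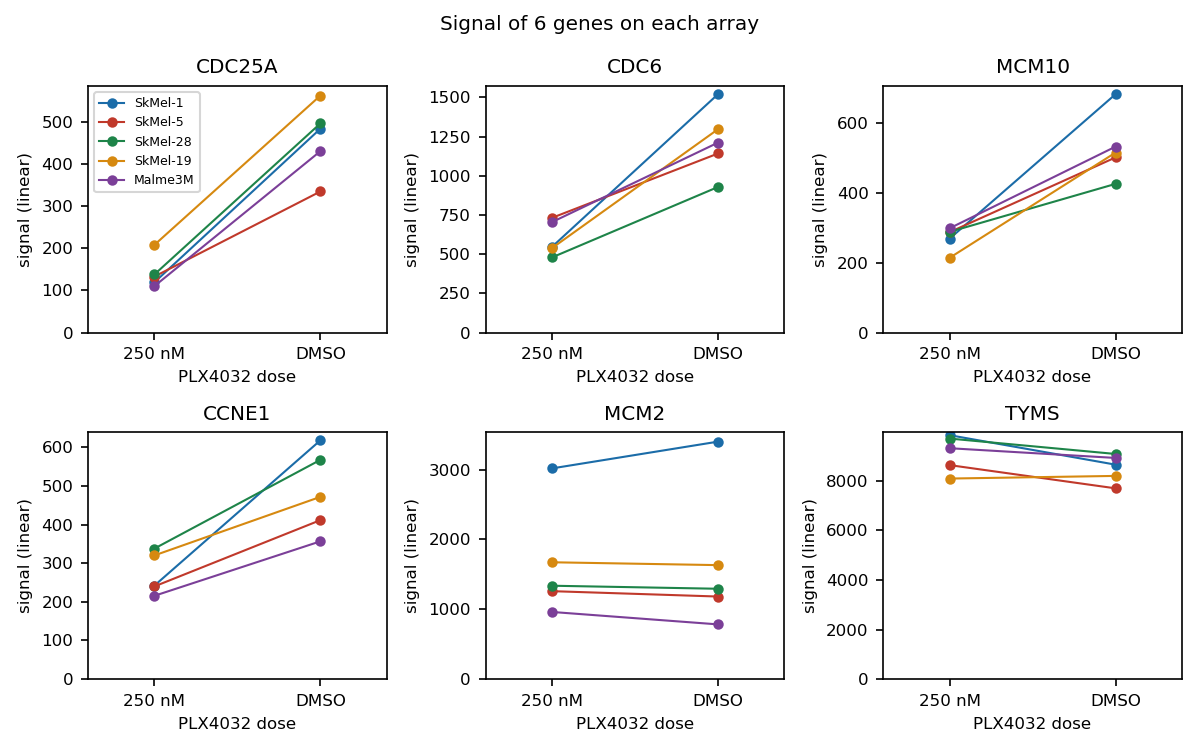
Linear signal (vertical axis) of 6 genes on the 10 arrays of the 250 nM comparison, 250 nM PLX4032 at the left and DMSO at the right, with a line joining the arrays of 1 cell line. CDC25A, CDC6, MCM10 and CCNE1 are lower at 250 nM in all 5 lines with no overlap, whereas MCM2 keeps its order of lines, SkMel-1 highest and Malme3M lowest, and TYMS lies between 7700.2 and 9847.2 on all 10 arrays.

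Of the E2F transcription factors, E2F1 fell and E2F3 did not pass. E2F1, an activator of replication genes that is held by RB, had 452.6, 325.8, 221.0, 159.0 and 182.8 at 250 nM, against 920.4, 493.8, 307.9, 302.7 and 288.5 in DMSO. It was lower in every line, while SkMel-1 at 250 nM stayed above 3 of the DMSO arrays. Its log2 fold change was -0.71 (SE 0.11, 1.64-fold lower, limma adjusted p = 0.00218), and a further probe set gave -0.38 (SE 0.13, limma adjusted p = 0.0531). E2F3, a related activator, had a log2 fold change of 0.02 (SE 0.08, 95% interval -0.16 to 0.20, limma adjusted p = 0.86). E2F2, a further activator, was measured only below the level of the filter, a signal of 85.7. Its signal lay between 25.4 and 41.9 at 250 nM and between 39.7 and 61.5 in DMSO, lower in all 5 lines by 0.52 on the log2 scale on average, with no test. In DMSO, at 250 nM and at 1000 nM, E2F2 had 39.7, 25.4 and 41.6 in SkMel-19 and 55.7, 27.3 and 45.3 in Malme3M. At 1000 nM E2F2 was above its 250 nM signal in both lines, and still below DMSO in Malme3M. All these signals were near background, and the difference between doses was not tested.

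Among the genes that license origins, 5 of 9 fell, and CDC6 fell most. CDC6, which helps ORC load the helicase, had 546.5, 731.8, 479.4, 538.7 and 704.6 at 250 nM, against 1520.9, 1142.4, 928.8, 1297.3 and 1211.8 in DMSO. The groups did not overlap. The log2 fold change of CDC6 was -1.01 (SE 0.12, 2.01-fold lower, limma adjusted p = 0.000812), and its further probe set gave -1.10 (SE 0.11, limma adjusted p = 0.000478). ORC1, the largest subunit of the origin recognition complex, fell by 0.39 on the log2 scale (SE 0.12, limma adjusted p = 0.0343). CDT1, the other helicase loader, fell by 0.38 (SE 0.10, limma adjusted p = 0.0226). ORC1 had 126.0, 191.6, 230.0, 287.2 and 215.6 at 250 nM, against 223.5, 269.4, 254.4, 367.3 and 255.9 in DMSO. The groups of ORC1 overlapped, and its change was largest in SkMel-1.

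Of the 6 genes of the MCM2 to MCM7 ring, 2 fell. MCM7 had a log2 fold change of -0.35 (SE 0.10, limma adjusted p = 0.0299) and MCM6 one of -0.24 (SE 0.07, limma adjusted p = 0.034). Both calls were lost without SkMel-19 and without Malme3M, MCM7 also without SkMel-1 and without SkMel-28, and MCM6 also without SkMel-5. In ORC1 the call was lost without any of SkMel-1, SkMel-5, SkMel-19 and Malme3M, and CDT1 lost it without the same 4 lines. MCM3, MCM4, MCM5 and MCM2 did not pass, with log2 fold changes of -0.13, -0.03, -0.08 and 0.06. Their 95% intervals together ran from -0.27 to 0.24. MCM2 had 3018.1, 1259.6, 1337.4, 1673.4 and 961.6 at 250 nM, against 3401.5, 1182.5, 1293.9, 1632.5 and 783.5 in DMSO. The lines differed far more than the treatments: SkMel-1 had the highest MCM2 signal and Malme3M the lowest, at 250 nM as in DMSO.

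Of the genes that fire origins, 3 of 5 fell. MCM10, which binds the helicase as it becomes active and is not part of the ring, had 268.8, 287.4, 288.3, 213.9 and 298.5 at 250 nM, against 682.6, 501.6, 425.8, 515.4 and 532.5 in DMSO. The 5 treated arrays lay close together and all below the DMSO arrays. The log2 fold change of MCM10 was -0.93 (SE 0.12, 1.91-fold lower, limma adjusted p = 0.0013). GINS1, a subunit of the GINS complex, fell by 0.37 (SE 0.07, limma adjusted p = 0.0062), by 0.31 to 0.50 in each line. Its DMSO signal was 504.5 in SkMel-1 and 2276.3 in SkMel-19, so the levels of the lines differed far more than the change.

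CDC45, which joins GINS on the helicase, fell by 0.31 (SE 0.09, limma adjusted p = 0.0336), a call that held only with all 5 lines or without SkMel-5. GINS2 did not pass (-0.19, SE 0.11, limma adjusted p = 0.22), lower in 4 lines and higher by 0.29 in SkMel-28, and passed without that line. CDC7, the kinase that triggers firing, did not pass either (-0.08, SE 0.09, limma adjusted p = 0.529).

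Of the 10 polymerase, clamp and fork genes, 3 fell, each by less than 1.5-fold. POLE2, a subunit of the leading-strand polymerase, fell by 0.38 (SE 0.09, limma adjusted p = 0.0181). RFC2 and RFC3, subunits of the clamp loader, fell by 0.36 (SE 0.10, limma adjusted p = 0.0255) and 0.29 (SE 0.07, limma adjusted p = 0.0182). All 3 calls were lost without SkMel-1 and without SkMel-28, and those of POLE2 and RFC3 also without SkMel-19. A further probe set of RFC2 was lower in 3 lines and did not pass (-0.28, SE 0.12, limma adjusted p = 0.116). That of RFC3 was lower in all 5 lines and passed (-0.39, SE 0.09, limma adjusted p = 0.0163). Further loader subunits did not pass, RFC4 at -0.13 and RFC5 at -0.11.

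PCNA, the sliding clamp, had 3229.6, 5378.2, 4899.1, 3042.1 and 5530.8 at 250 nM, against 3713.0, 5726.2, 5532.3, 4335.2 and 5761.2 in DMSO. It was lower in all 5 lines and did not pass (-0.21, SE 0.07, 95% interval -0.36 to -0.05, limma adjusted p = 0.0525). FEN1, the nuclease that trims Okazaki fragments, did not pass (-0.24, SE 0.12, limma adjusted p = 0.18), with -0.71 in SkMel-1 and 0.17 in Malme3M. Its further probe set was lower in all 5 lines and did not pass either (-0.35, SE 0.12, limma adjusted p = 0.0555). PRIM1 and POLA1, which make the primers, and LIG1, which seals nicks, had log2 fold changes of 0.02, 0.06 and 0.04 and did not pass.

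None of the 4 genes that supply deoxynucleotides passed at 250 nM. TYMS, which makes thymidylate, had 9847.2, 8638.4, 9710.1, 8095.1 and 9320.2 at 250 nM, against 8656.0, 7700.2, 9087.7, 8202.1 and 8927.3 in DMSO. It was higher in 4 lines and lower in SkMel-19, with a log2 fold change of 0.10 (SE 0.04, limma adjusted p = 0.123). TK1, which salvages thymidine, and RRM1, the large subunit of ribonucleotide reductase, had log2 fold changes of 0.04 (SE 0.11) and 0.00 (SE 0.06). RRM2, the small subunit of that enzyme, did not pass by its brightest probe set (-0.19, SE 0.08, limma adjusted p = 0.11). Its further probe set was lower in all 5 lines and passed (-0.51, SE 0.09, limma adjusted p = 0.0044), so RRM2 is left undecided between its probe sets.

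Among the genes for chromatin and repair at the fork, 3 of 4 fell. UNG, the glycosylase that removes uracil from DNA, had 390.3, 710.4, 783.6, 1034.8 and 1180.6 at 250 nM, against 1198.1, 1082.9, 1088.4, 2042.7 and 1769.8 in DMSO. It was lower in every line, but Malme3M at 250 nM lay above the DMSO arrays of SkMel-5 and SkMel-28. The log2 fold change of UNG was -0.84 (SE 0.15, 1.79-fold lower, limma adjusted p = 0.00468).

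CHAF1A, the large subunit of the CAF-1 histone chaperone, had 294.5, 216.0, 372.7, 329.0 and 302.7 at 250 nM, against 542.7, 394.0, 500.5, 359.4 and 435.9 in DMSO. Its log2 fold change was -0.55 (SE 0.12, 1.46-fold lower, limma adjusted p = 0.0115), with the smallest change in SkMel-19, at -0.12. Its 2 further probe sets gave -0.77 (limma adjusted p = 0.00165) and -0.39 (limma adjusted p = 0.126). CHAF1B, a partner of CHAF1A in CAF-1, did not pass (0.05, SE 0.12, limma adjusted p = 0.77). SLBP, which binds the stem-loop of histone mRNAs, fell by 0.40 (SE 0.09, limma adjusted p = 0.0144), a call lost without SkMel-28.

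**Figure D3:**
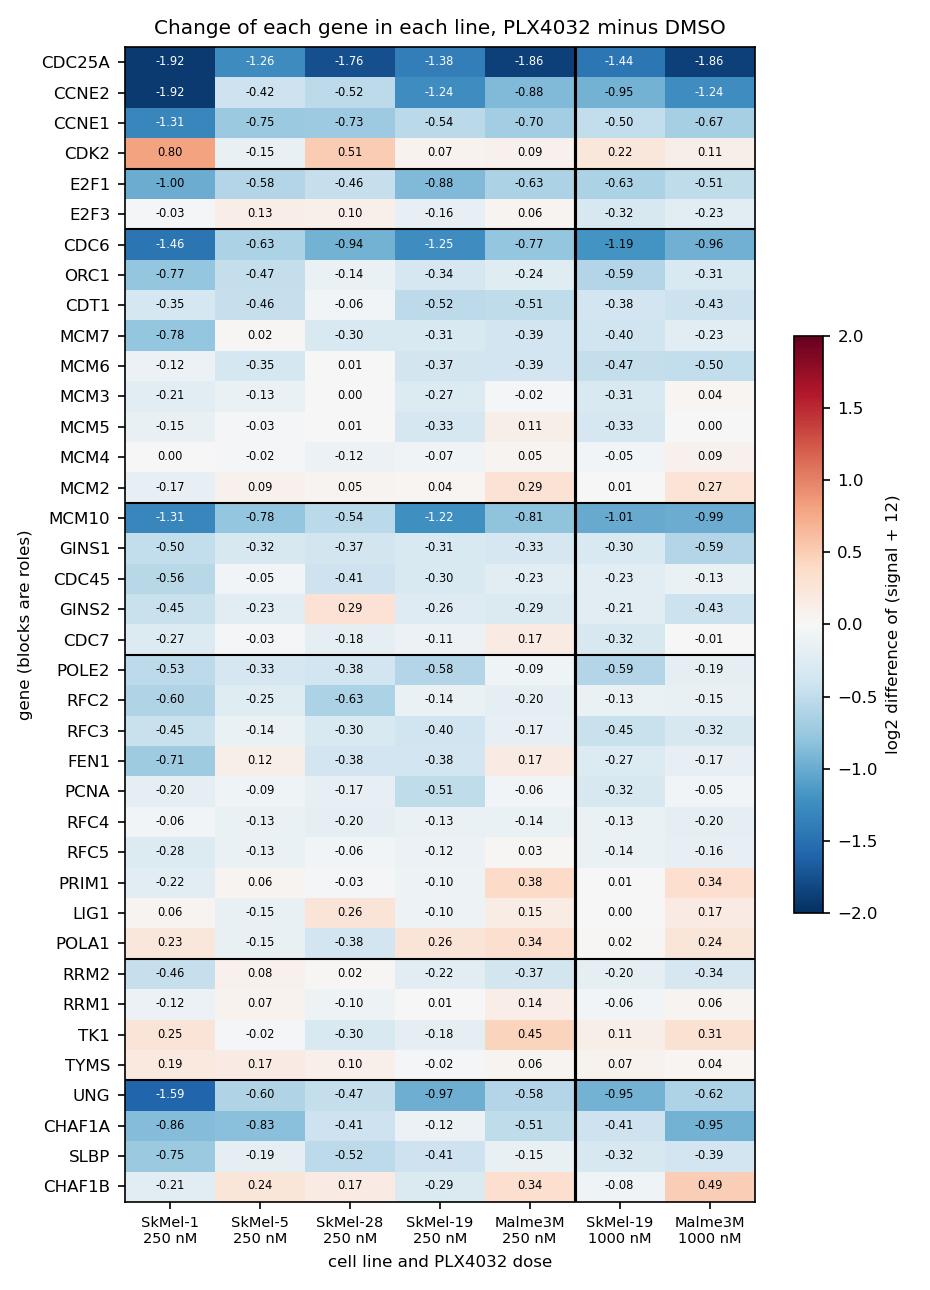
Log2 difference of PLX4032 minus DMSO for each of the 38 genes (rows, in blocks by role) in each line, with 250 nM in the 5 left columns and 1000 nM in the 2 right columns; blue is lower and red higher than DMSO. Among the 5 columns at 250 nM, that of SkMel-1 holds the largest fall in 14 of the 18 genes that passed, such as -1.59 for UNG. The like share over all genes was not counted.

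The lines differed in how far the genes moved. The median log2 change of the 38 was -0.40 in SkMel-1, -0.14 in SkMel-5, -0.19 in SkMel-28, -0.29 in SkMel-19 and -0.14 in Malme3M. Over all genes tested, these medians lay between 0.01 in SkMel-5 and 0.05 in Malme3M. Of the 38, 33 were lower than in DMSO in SkMel-1 and 23 in Malme3M. Of all 7178 genes, 3416 were lower in SkMel-1 and 3162 in Malme3M. Among the 18 genes that fell, SkMel-1 changed most in 14 and had the smallest fall in 0. How often SkMel-1 changed most over all genes was not counted, so whether this is particular to the 18 is not known. In DMSO, SkMel-1 had the highest signal for 17 of the 38 genes, such as E2F1, MCM2 and SLBP, and the lowest for 5. ORC1 and GINS1, whose falls were largest in SkMel-1, were among those 5. With 1 array per line and dose, a difference between 2 lines has no test.

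Genes known as direct readouts of ERK output were lower in all 5 lines. All 7 genes listed for this check fell by the test: DUSP6 (-5.04), SPRY2 (-3.92), SPRY4 (-3.29), CCND1 (-3.09), ETV5 (-2.61), MYC (-2.37) and ETV4 (-1.97), with limma adjusted p from 0.000203 to 0.000968. Of all genes tested, 13.1% fell by the same rule and 16.6% were lower in all 5 lines. The 7 genes were listed with earlier results of these data known, so their count is not independent support. DUSP6, SPRY2 and SPRY4 had arrays under a signal of 85.7, so the size of their falls depends on the pseudocount. The median log2 change of the 7 was -3.65 in SkMel-1, -2.01 in SkMel-5, -2.57 in SkMel-28, -3.42 in SkMel-19 and -3.44 in Malme3M. Over the 18 replication genes that fell, the medians were -0.78 in SkMel-1, -0.44 in SkMel-5, -0.44 in SkMel-28, -0.47 in SkMel-19 and -0.45 in Malme3M.

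Markers of cell types were read as a check of the lines. Of 8 melanocyte lineage markers 7 had a probe set, with a summed signal of 41528 to 65657 at 250 nM and 31538 to 61474 in DMSO. All 7 were above the filter level on some array, and 6 on every array; TYRP1 was near background in SkMel-1. Of the 7, 1 rose at 250 nM, where 15.2% of all genes did: MLANA (0.20, SE 0.04, limma adjusted p = 0.01). Leukocyte markers summed to at most 67 at 250 nM and 94 in DMSO, fibroblast markers to at most 2066 and 1764, and endothelial markers to at most 293 and 615. Keratinocyte markers summed to at most 4566 at 250 nM and 3447 in DMSO, and of the 5, KRT10 alone was above the filter level on any array. Of 7 fibroblast markers 4 were above that level on some array, and COL1A1 and LUM on every array. Of 4 endothelial markers 2 were above it on some array, KDR and VWF, whereas no leukocyte marker was.

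In SkMel-19 and Malme3M, which received both doses, 10 of the 38 genes fell at 250 nM and 7 at 1000 nM, and 0 rose at either dose. In these 2 lines 5.36% of all genes fell and 5.98% rose at 250 nM, and 5.89% fell and 5.29% rose at 1000 nM. Both comparisons use the same DMSO arrays. The 7 genes at 1000 nM were CDC25A, CDC6, CCNE2, MCM10, UNG, CCNE1 and MCM6, and each also fell at 250 nM. E2F1, CDT1 and RRM2 passed at 250 nM only, with limma adjusted p of 0.0578, 0.0772 and 0.0512 at 1000 nM, and their difference between doses is given below. With SkMel-19 or Malme3M left out, 1 gene fell at 1000 nM in place of 7. That fit holds a lone 1000 nM array and takes its spread from the 250 nM and DMSO arrays of all 4 remaining lines, so the lone array is assumed to vary as they do.

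CDC25A had 562.0, 207.9 and 200.1 in SkMel-19 and 430.2, 110.1 and 109.7 in Malme3M in DMSO, at 250 nM and at 1000 nM. The signal was nearly level between the doses in both lines. Its log2 fold change over DMSO was -1.62 (SE 0.17, limma adjusted p = 0.00705) at 250 nM and -1.65 (SE 0.17, limma adjusted p = 0.00667) at 1000 nM. CDC6 had 1297.3, 538.7 and 562.6 in SkMel-19 and 1211.8, 704.6 and 619.0 in Malme3M in the same order of doses. CCNE2 had 692.7, 286.3 and 353.1 in SkMel-19 and 1097.1, 591.4 and 457.1 in Malme3M. At 1000 nM both genes were above their 250 nM level in SkMel-19 and below it in Malme3M.

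MCM6 fell by 0.38 at 250 nM (SE 0.07, limma adjusted p = 0.0296) and by 0.49 at 1000 nM (SE 0.07, limma adjusted p = 0.0149) in these lines. UNG had a log2 fold change of -0.78 at 250 nM and -0.79 at 1000 nM, and CCNE1 of -0.62 and -0.58. MCM10 had 515.4, 213.9 and 249.7 in SkMel-19 and 532.5, 298.5 and 262.8 in Malme3M in DMSO, at 250 nM and at 1000 nM. The second dose step of MCM10 was up in SkMel-19 and down in Malme3M, as in CDC6 and CCNE2.

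Set directly against 250 nM, the arrays at 1000 nM gave 0 calls among the 7178 genes (0%) and so 0 of the 38, by limma. At an unadjusted p under 0.05 there were 75 genes, of which 0 were among the 38. The median difference of the 38 was -0.03. The 95% interval of the difference included 0 for all 38, and its half-width was 0.13 to 0.45. These intervals are not adjusted for the 7178 genes tested, so a call needed a difference larger than the half-width. Differences of that size or smaller, and some larger ones, could not be detected. For E2F1, CDT1 and RRM2 the differences were 0.18 (-0.18 to 0.54), 0.11 (-0.18 to 0.40) and 0.02 (-0.14 to 0.18). CHAF1A differed most, by -0.37 (95% interval -0.78 to 0.04, limma adjusted p = 0.999). It had 359.4, 329.0 and 266.9 in SkMel-19 and 435.9, 302.7 and 219.1 in Malme3M in DMSO, at 250 nM and at 1000 nM. This is a stepwise order in both lines, which MCM6, ORC1 and RFC3 had too, among others.

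**Figure D4:**
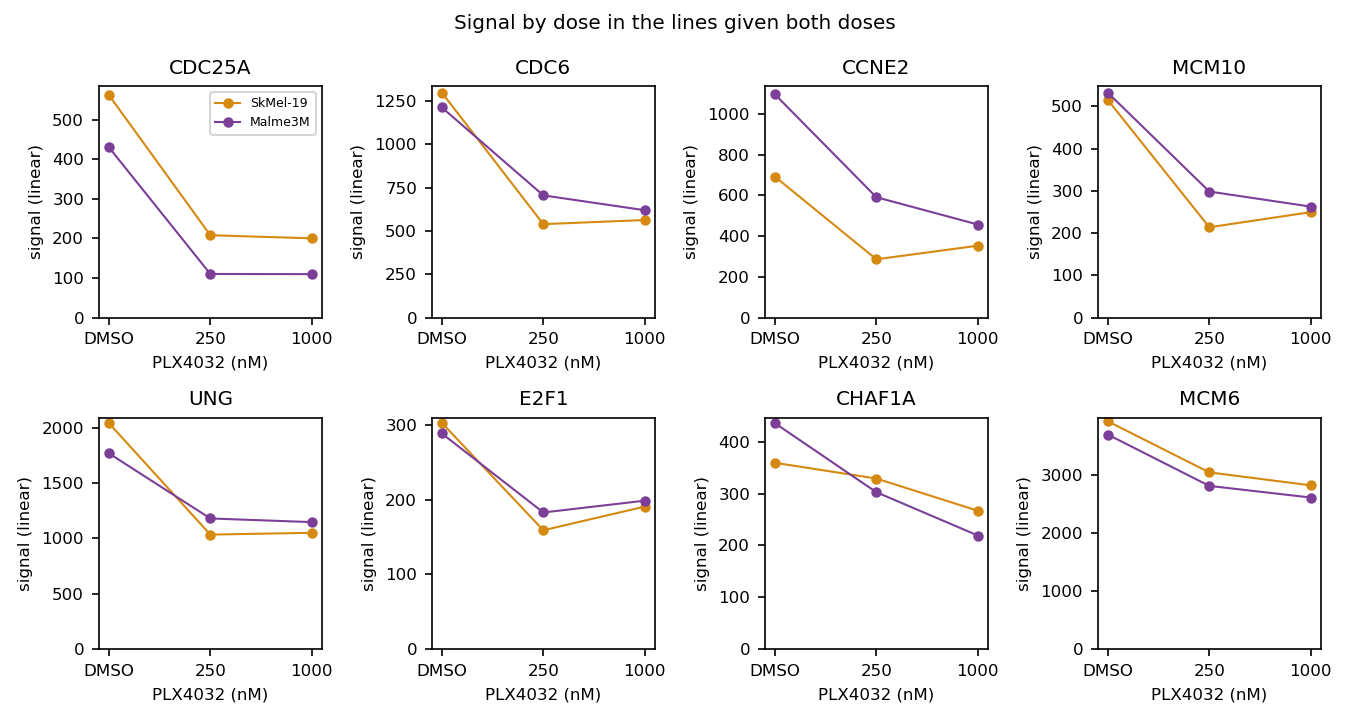
Linear signal (vertical axis) of 8 genes in SkMel-19 and Malme3M, each on 1 array in DMSO, at 250 nM and at 1000 nM PLX4032 (horizontal axis). CDC25A lies near 200.1 in SkMel-19 and near 109.7 in Malme3M at both doses. CHAF1A and MCM6 are lowest at 1000 nM in both lines, as is CDC25A by a small margin.

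A wider list of 57 other replication and RB-E2F genes gave 50 that were tested, of which 11 fell and 0 rose at 250 nM, where 13.1% of all genes fell and 15.2% rose. Their median log2 fold change was -0.14. TIPIN, which protects stalled forks, fell 1.68-fold (-0.75, SE 0.11, limma adjusted p = 0.00208). DSCC1, part of a clamp loader for cohesion, fell 1.67-fold (-0.74, SE 0.14, limma adjusted p = 0.00563). E2F8, a repressor of the E2F family, fell by the test, and was lower in 4 lines and 0.08 higher in Malme3M (-0.62, SE 0.16, limma adjusted p = 0.0231). POLE, the catalytic subunit of the leading-strand polymerase, had a log2 fold change of -0.54 (SE 0.12, limma adjusted p = 0.0131), its small partner POLE3 one of -0.36 and GINS3 one of -0.44. GMNN, the inhibitor of CDT1, fell as CDT1 did (-0.42, SE 0.12, limma adjusted p = 0.0275), and DBF4, the activator of CDC7, fell by 0.27 (SE 0.07, limma adjusted p = 0.0203).

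RB1 and its relatives RBL1 and RBL2, which bind E2F factors, did not pass, nor did the E2F factor E2F4: RB1 had a log2 fold change of -0.03 (SE 0.09), RBL1 of -0.15 (SE 0.11), RBL2 of 0.07 (SE 0.10) and E2F4 of -0.08 (SE 0.07). TFDP1, the partner that E2F factors need to bind DNA, fell by 0.32 (SE 0.09, limma adjusted p = 0.033), and the repressor E2F6 fell by 0.30 (SE 0.08, limma adjusted p = 0.0226). CCNA2, for cyclin A2 of S phase and G2, did not pass (0.08, SE 0.07, limma adjusted p = 0.422).

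Genes of the next phases of the cycle were counted in the same way. Of 36 G2 and mitosis genes 35 were tested, and 17 rose and 2 fell at 250 nM, where 15.2% of all genes rose and 13.1% fell. Their median log2 fold change was 0.19. KIF20A, a motor of cell division, rose in every line (0.74, SE 0.09, limma adjusted p = 0.000895). CDC25C, the relative of CDC25A that triggers mitosis, rose (0.61, SE 0.11, limma adjusted p = 0.00554), as did ASPM, a spindle pole protein (0.50, SE 0.09, limma adjusted p = 0.00578). CDC25C had 396.5, 354.4, 589.8, 384.9 and 222.8 at 250 nM, against 271.0, 293.3, 295.3, 251.1 and 135.4 in DMSO, so CDC25A and CDC25C changed in opposite directions in all 5 lines.

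**Figure D5:**
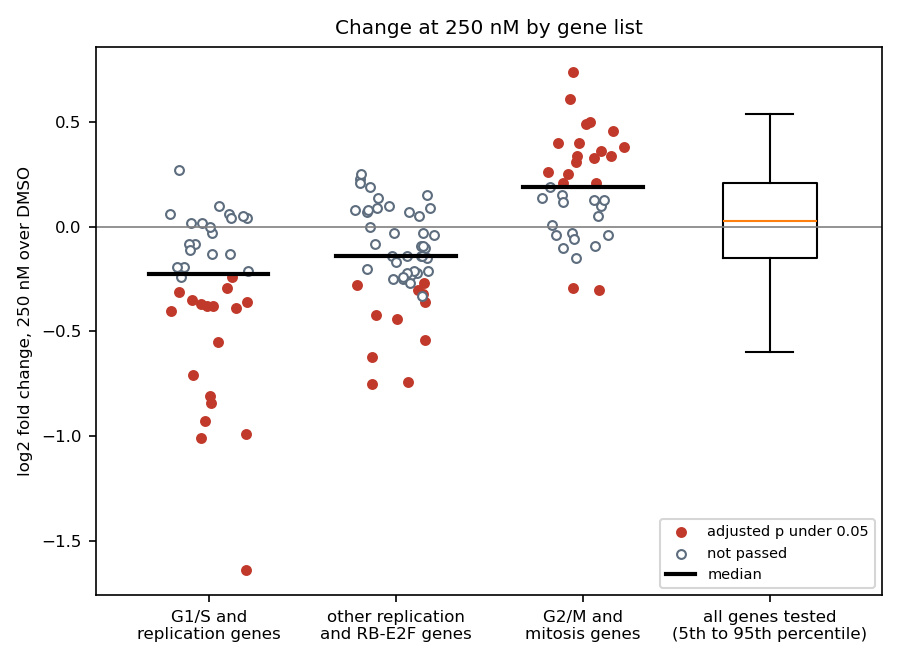
Log2 fold change at 250 nM over DMSO (vertical axis) of each tested gene in 3 lists, with red points for a limma adjusted p under 0.05, black lines for list medians and a box for all 7178 genes (median, quartiles, whiskers at the 5th and 95th percentiles). The medians are -0.22 for the G1/S and replication genes, -0.14 for other replication and RB-E2F genes, 0.19 for G2 and mitosis genes and 0.03 for all genes.

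A symbol can stand for more than 1 transcript, and the probe sets were compared. The 39 genes with a probe set had 22 further ones, 20 of which were above the filter. For the genes that fell, 9 further probe sets in 8 genes gave 0 with the opposite sign, and 6 passed. The largest difference between probe sets of such a gene was 0.63, in CDC25A. Among genes that did not pass, CDK2, RRM1 and TYMS had a further probe set of the opposite sign, below the filter in CDK2 and TYMS. Several genes overlap a neighbour in the RefSeq annotation, among them ORC1 with PRPF38A, MCM7 with AP4M1, CHAF1A with UBXN6, CCNE2 with INTS8 and NDUFAF6, and TYMS with ENOSF1. Whether the neighbours contribute signal was not tested.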

How the data were processed

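The deposited table gives a linear intensity for each of 22277 probe sets on each of 12 Affymetrix arrays, made by the authors with GCOS, per the submitters' processing notes. The version, the summarisation of probes and the treatment of background are not given in the sources used here. Biotin-labelled cRNA came from total RNA, per the labels' protocols. A mean trimmed by 2% at each end was 499.9 on every array, and array medians lay between 102.5 and 130.4.

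Values were kept as deposited, and log2(value + 12) was used, 12 being the 20th percentile of all values, so fold changes of dim genes are understated. Control probe sets (62) were left out. Of the other 22215, 19064 carried 1 symbol, 1043 several and 2108 none, by the platform annotation, and 19052 were matched to the current gene table by Entrez ID, with 0 symbols changed. The probe set of highest mean signal stood for each of 11963 genes, and the 7178 with a mean log2 value of at least 6.61 (a signal of 85.7, at the 40th percentile) entered the tests. On arrays the number of arrays limits the precision.

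Groups were compared in R 4.3.3 with limma 3.58.1 (lmFit and eBayes with a trend on mean level, two-sided, Benjamini-Hochberg adjustment over all 7178 genes, threshold 0.05), blocked on the cell line. At 250 nM, 10 arrays left 4 residual degrees of freedom. The comparisons that involve 1000 nM, and 250 nM in the same lines, rest on 6 arrays (SkMel-19 and Malme3M), which left 2. The pairing comes from the cell line in the labels. With group means subtracted, the correlation was 0.898 to 0.931 within a line and at most -0.135 between lines.

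The 40 genes and all other lists were chosen with earlier results of these data known. All 40 genes are accounted for. Of the other replication and RB-E2F genes the 6 that passed and changed most are named, of the G2 and mitosis genes 3 by the same rule, and all 7 genes of the drug check. PMEL, RB1, RBL1, RBL2, E2F4, E2F6, TFDP1, CCNA2, POLE3 and DBF4, and the reading of single probe sets, were chosen after their values were seen. Promoters are RefSeq sequences of GRCh38.p14, searched for exact letters. The alternatives tried were other pseudocounts, filters, scalings, probe set rules and fits, and leaving out each line. The steps were tested on simulated data, with 200 of 7178 genes changed. Of log2 changes of 0.5, 61.2% were recovered at 250 nM in 5 lines and 6.56% at 1000 nM in 2 lines. For changes of 1 the shares were 91.6% and 53.4%. A gene that did not pass can therefore still have changed, above all in the 2-line comparisons. Plots were made in Python 3.11.15 with matplotlib 3.10.9.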

Additional observations from a re-analysis of the deposited data

Results flagged for a closer look

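In CCNE1, the change of SkMel-1 at 250 nM stood apart from those of the other lines. It was -1.31 on the log2 scale, whereas the other 4 lines lay between -0.75 and -0.54, so that its gap was 0.731 of the whole range, above the limit of 0.71 for 5 values. It was the only one of 38 genes examined in this way, and chance alone sets about 1 in 20 groups apart. Its cause was not tested.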

How the results depend on the processing

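The count of genes that fell at 250 nM, 18 of 38, was between 15 and 19 under other pseudocounts, without the filter on low values, with arrays centred or quantile normalized, with all probe sets averaged, without the trend, with all 12 arrays in 1 fit and with signals raised to the filter level. With no replicate block, that is without pairing arrays by line, it was 1, and over all genes 13 were called in place of 2029. Leaving out each line gave 11 to 16 genes that fell (11 without SkMel-1 and without SkMel-19) and 1288 to 1836 genes called in all. At 1000 nM, 7 became 11 with all 12 arrays in 1 fit, 0 with no replicate block and 1 without SkMel-19 or without Malme3M, each a fit with a lone 1000 nM array whose spread comes from the other arrays of 4 lines. For 250 nM in the same 2 lines, 10 became 6 without the filter, where more genes were tested, and 0 with no replicate block. The count of genes that rose at 250 nM was 0 in all 15 other settings, and the count that differed between doses was 0 in each setting tried. The median log2 fold change at 250 nM lay between -0.269 and -0.179.

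CDC25A passed in all 15 other settings, and 9 genes that fell passed in the 14 that keep the block. 0 genes that fell changed sign in any setting, and 8 that did not pass did. PCNA passed under quantile normalization (-0.222) and with all 12 arrays (-0.207), and RRM2 with all its probe sets averaged (-0.348) and without SkMel-5 (-0.256). Causes were not tested. Leaving out a line was not run for 250 nM in the 2 lines, nor was raising signals to the filter level for the 2-line comparisons. With 1 array per line and dose, no change within a single line has a test from its own arrays, and 2 lines limit what the dose comparison can detect. Signal over background limits E2F2.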
